A study of Mus musculus with 3 samples.

Results

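Monocytes enter inflamed tissue along gradients of CC chemokines, and the transcripts described here are those of 6 such ligands, Ccl2, Ccl7, Ccl12, Ccl8, Ccl6 and Ccl9, and of 1 receptor, Ccr2. The 7 genes were chosen by name, with earlier results of these data known, and were read out of 32285 gene rows in each of 3 single-cell RNA-Seq libraries. Every library held CD45+ cells sorted by FACS from the sciatic nerve of neuropathic NOD.AireGW/+ mice, which carry 1 dominant-negative copy of Aire (the GW allele) on the NOD background and develop inflammatory neuropathy spontaneously. Library 1 came from 1 mouse, library 2 from 1 mouse and library 3 from 2 pooled mice. All libraries belonged to the same group, with no nerve from a mouse without neuropathy, so the comparisons are between cell classes of the same nerves and say nothing of what neuropathy changed.

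Chemokines are small secreted proteins that bind 7-transmembrane receptors on leukocytes and direct their migration. Ccl2, Ccl7 and Ccl12 encode ligands of the receptor encoded by Ccr2, which lets classical Ly6C-high monocytes leave the bone marrow and enter injured or inflamed peripheral nerve. Ccl8 belongs to the same monocyte chemoattractant family, and its mouse product acts through CCR8. Ccl6 and Ccl9 encode rodent chemokines that signal through CCR1, another receptor of monocytes and granulocytes.

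All 6 ligand genes lie on mouse chromosome 11 (GRCm38, which is mm10; GENCODE vM21). Ccl2 (chr11:82035571-82037453), Ccl7 (chr11:82045712-82047525), Ccl12 (chr11:82101845-82103400) and Ccl8 (chr11:82115185-82116799) are on the plus strand within 81.2 kb. Ccl9 (chr11:83572919-83578636) and Ccl6 (chr11:83587882-83593087) lie together on the minus strand, 1456 kb further on. Ccr2 is on the plus strand of chromosome 9 (chr9:124101950-124113557). The longest run of bases shared exactly by transcripts of any 2 of the 6 ligands was 25 bases (Ccl6 and Ccl9).

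RefSeq's promoter table (GRCm38.p6) held 5 of the 7 genes, Ccl12, Ccl8, Ccl6, Ccl9 and Ccr2. Those of the neighbours Ccl12 and Ccl8 are shown because both genes had their highest level in macrophages while differing in monocytes. The 250 bases before each annotated start are printed from 5′ to 3′, with capitals marking the TATAAA match and the stretch that a local alignment paired between the genes.
Ccl12: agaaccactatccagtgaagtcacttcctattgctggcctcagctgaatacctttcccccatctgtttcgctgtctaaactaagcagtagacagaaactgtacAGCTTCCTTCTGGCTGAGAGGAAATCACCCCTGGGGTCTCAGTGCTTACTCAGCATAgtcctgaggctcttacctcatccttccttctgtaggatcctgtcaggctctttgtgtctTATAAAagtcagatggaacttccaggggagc
Ccl8: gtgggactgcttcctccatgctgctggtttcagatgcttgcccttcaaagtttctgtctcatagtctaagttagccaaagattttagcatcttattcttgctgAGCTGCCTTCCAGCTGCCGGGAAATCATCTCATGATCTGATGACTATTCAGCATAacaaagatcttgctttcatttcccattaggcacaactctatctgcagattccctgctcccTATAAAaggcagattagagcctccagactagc
The Ccl12 sequence is chr11:82101595-82101844 and the Ccl8 sequence chr11:82114935-82115184, both on the plus strand. The paired stretch began 147 bases before the start in both genes, and 41 of its 54 aligned bases were identical (75.9%). TATAAA began 31 bases before the start of Ccl12 and 32 bases before that of Ccl8. Searched on both strands of the same 250-base windows, TATAAA was present in 12.4% of 32851 promoters, 3 times in that of Ccl9 and in neither of those of Ccl6 and Ccr2. A PU.1 core (AGGAAGT, in 7.69% of promoters) was found once in Ccl12 and once in Ccl6, and an AP-1 site (TGANTCA, in 6.75%) once in Ccl9. The 3 matches in Ccl9 lay on both strands and some of them overlapped. None of the 5 windows held TTCNNNGAA (GAS, in 7.02% of promoters) or TTGCNNAA (C/EBP, in 9.56%), which says only that these letters are not there.

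The libraries held 3926, 8311 and 1533 cells with 22983991, 55120460 and 3399733 UMIs, of which 3848, 8256 and 1533 cells were kept. Between 21 and 50 cell barcodes of a library also occurred in another. Cells were put into classes by marker UMIs, with none of the 7 genes used for this. The gates gave 14, 2788 and 4 macrophages (by C1qa, C1qb and C1qc), 119, 304 and 36 monocytes, 56, 267 and 15 dendritic cells, 320, 260 and 70 B cells, 578, 746 and 179 CD4 cells, 927, 931 and 248 CD8 cells, 360, 449 and 107 Foxp3 cells, and 51, 63 and 16 NK cells in libraries 1, 2 and 3. Library 2 stood apart, with 33.8% of its cells gated as macrophages against 0.364% and 0.261% in the others. With 4 cells, the macrophages of library 3 were left out of every test, so each test on macrophages below rests on 2 libraries. Leaving out library 1 or 2, the stricter gate and a minimum of 20 cells each leave a single macrophage sum, whose spread is then assumed to be that of the other classes. Checked against other markers, the macrophages of libraries 1 and 2 had Mertk at 40.4 and 34.5 CPM, against 4.25 and 9.63 CPM in monocytes. The monocyte gene Ly6c2 was at 816 and 36.9 CPM in these macrophages, against 807 and 303 CPM in monocytes. In library 1, Ly6c2 therefore did not separate the cells of the macrophage gate from monocytes. Genes of the T cell list summed to 1002 and 554 CPM in these macrophages, against 5700 and 5380 CPM in CD4 cells, and the part of either in the results was not tested. Levels are CPM, the count of a gene's UMIs scaled to the total UMIs of the class in that library, and their intervals are exact 95% Poisson intervals that cover counting error only.

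Macrophages, phagocytes that in nerve include resident cells and descendants of monocytes, carried Ccl8 at a level that none of the other 7 gated classes approached. Ccl8 was at 1689 CPM (1468 to 1935) in the macrophages of library 1 and at 12898 CPM in those of library 2, and the 4 cells of library 3 held 5 UMIs (600.5 CPM, 195 to 1401). In monocytes it was at 4.25, 99.9 and 99.9 CPM, and in pooled lymphoid cells at 2.08, 41.8 and 0.687 CPM. The macrophage level was therefore 812-fold above the lymphoid level in library 1 and 309-fold in library 2, with no overlap between the classes. Outside these classes, 3 cells of library 2 gated as neutrophils held 255 Ccl8 UMIs. Library 2 macrophages, 33.8% of its cells, held 98.4% of its 332004 Ccl8 UMIs. In library 1 the macrophages held 49.5% of 422 Ccl8 UMIs and cells that passed no gate another 41.5%, and in library 3 cells without a gate held 60.0% of 60 UMIs.

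**Figure D1:**
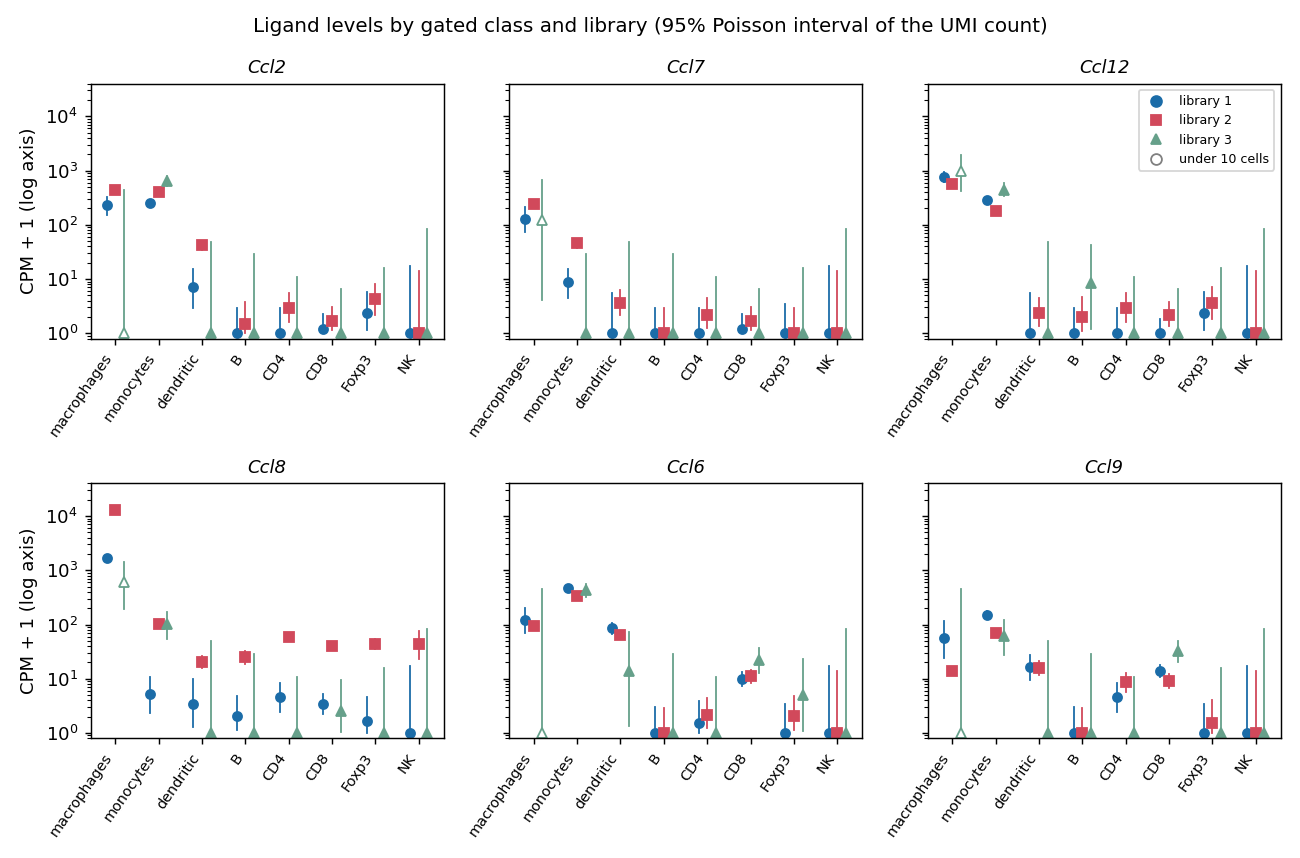
Level of each ligand (CPM + 1, log axis) in each gated class, 1 point per library with the exact 95% Poisson interval; open points are sums of under 10 cells. Ccl8 in macrophages (1689 and 12898 CPM) stands above every other class, Ccl2 and Ccl12 are high in macrophages and monocytes alike, and Ccl6 and Ccl9 are highest in monocytes and keep a low level in CD8 cells.

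In lymphoid cells of library 2, the Ccl8 level was a small share of the macrophage level, as were those of C1qa, C1qb and Apoe. The Ccl8 level of its 5 lymphoid classes was 0.184% to 0.456% of the macrophage level, and C1qa stood at 0.116% to 0.310% and C1qb at 0.128% to 0.307%. The gate counts C1q UMIs against lymphoid cells, so the shares of C1qa and C1qb were limited in advance. Apoe, which is not in the gate, ranged from 0.337% in CD8 cells to 1.13% in B cells. With every cell thinned to 1000 UMIs, 73.6% of library 2 macrophages had a Ccl8 UMI (84.6% unthinned), against 4.62% of B cells (13.8% unthinned), a class not known to make it. Median depths were 8384.5 UMIs in macrophages and 2849.5 UMIs in B cells. Monocytes of library 2, at 5.26% (3.04% to 8.41%), overlapped the B cell share (2.41% to 7.92%), while unthinned shares were 21.7% and 13.8% and levels 99.9 and 23.8 CPM. Whether monocytes of library 2 express Ccl8 was therefore not settled by these values.

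The CCR2 ligands Ccl2 and Ccl12 were shared by macrophages and monocytes. Ccl2 was at 226 and 443.5 CPM in the macrophages of libraries 1 and 2, and at 251, 397 and 653 CPM in the monocytes of libraries 1, 2 and 3 (434 ± 204, SD, n = 3). The ranges of the classes overlapped. Ccl12 was at 752 and 569 CPM in macrophages and at 280, 181 and 446 CPM in monocytes (302 ± 134, SD, n = 3), without overlap. Ccl7 was at 129 and 237.5 CPM in macrophages but at 7.65, 44.5 and 0 CPM in monocytes, the 0 of library 3 allowing up to 23.1 CPM (3 UMIs). Dendritic cells, which present antigen to T cells, had Ccl2 at 6.07, 40.6 and 0 CPM, Ccl12 at 0, 1.32 and 0 CPM and Ccl7 at 0, 2.64 and 0 CPM.

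Among the 8 gated classes, monocytes had the highest levels of the CCR1 ligands Ccl6 and Ccl9. Ccl6 was at 468, 338 and 430 CPM in monocytes (412 ± 66.8, SD, n = 3), at 121 and 91.7 CPM in macrophages and at 83.7 and 62.4 CPM in the dendritic cells of libraries 1 and 2, with 1 UMI in those of library 3. Every monocyte value lay above every value of macrophages and dendritic cells. Ccl9 was at 150, 70.1 and 61.5 CPM in monocytes (93.7 ± 48.6, SD, n = 3), at 56.6 and 13.03 CPM in macrophages and at 15.8, 14.9 and 0 CPM in dendritic cells. The lowest monocyte library therefore lay close to the higher of the macrophage libraries. Myeloid cells outside these classes reached 384 CPM of Ccl6 and 79.0 CPM of Ccl9 in library 3, the latter 7 UMIs, and 3 neutrophils of library 2 held 10 Ccl6 UMIs.

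Whether the ligands differ between monocytes and macrophages was tested by edgeR's quasi-likelihood test on UMIs summed per library and class, in a model that also fitted the library, and p-values were adjusted over 10427 genes. Of all genes, 6.42% were called at an adjusted p under 0.05 (3.29% higher and 3.13% lower in monocytes), and 6 of the 7 members were. On the log2 scale the difference, monocytes minus macrophages, was -7.13 for Ccl8 (SE 0.51, adjusted p = 5.8e-11), -2.76 for Ccl7 (SE 0.29, adjusted p = 2.0e-06) and -1.44 for Ccl12 (SE 0.29, adjusted p = 0.0016). Higher in monocytes were Ccl9 (2.34, SE 0.42, adjusted p = 0.00057), Ccl6 (1.89, SE 0.29, adjusted p = 9.4e-05) and Ccr2 (1.30, SE 0.37, adjusted p = 0.027). Ccl2 differed by 0.13 (SE 0.28, adjusted p = 0.87). Within each library Ccl6 was 3.86-fold and 3.69-fold higher in monocytes, and Ccl12 was 2.69-fold and 3.15-fold higher in macrophages.

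**Figure D2:**
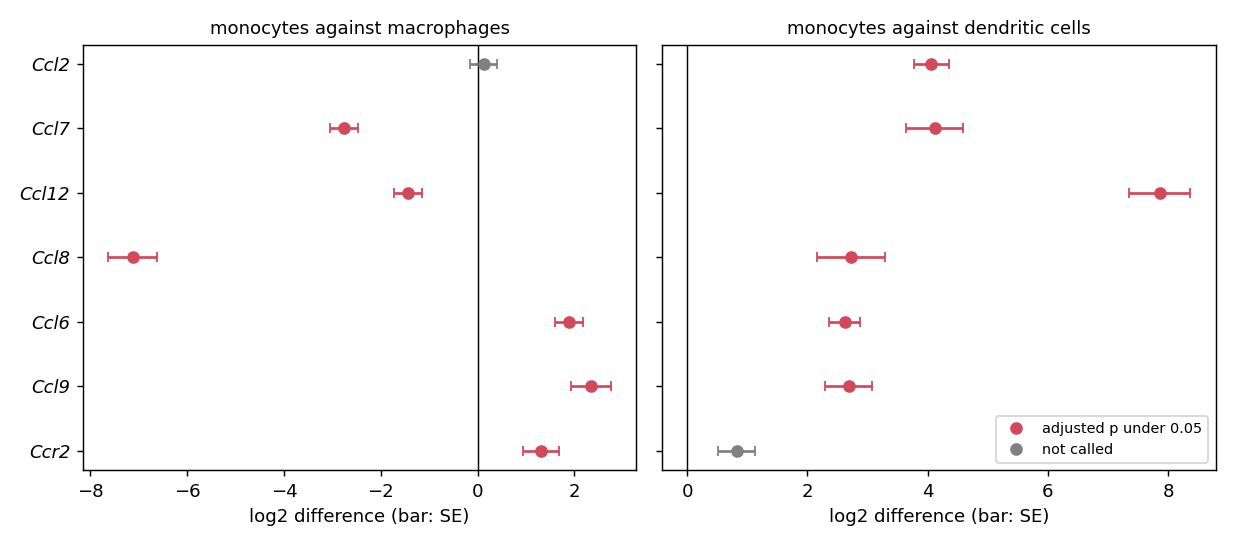
Log2 difference of each member, monocytes minus macrophages (left) and monocytes minus dendritic cells (right). Bars are the SE, taken as the absolute difference divided by the square root of its F statistic. Red points have an adjusted p under 0.05. Against macrophages the members split, from -7.13 (Ccl8) to 2.34 (Ccl9), while all 6 ligands were called higher in monocytes than in dendritic cells.

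The Ccr2 difference rested on library 2: the monocyte level was 4.70-fold above the macrophage level there and 1.07-fold in library 1, and the difference was 0.24 without library 2 (adjusted p = 0.91) and 1.27 without library 3 (adjusted p = 0.092). Without library 2, only the 14 macrophages of library 1 remained and the calls of Ccl7, Ccl12, Ccl6 and Ccl9 were lost as well, whereas Ccl8 was called under every alternative run.

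Macrophages stood far above dendritic cells for the CCR2 ligands, as did monocytes for Ccl2 and Ccl12. Monocytes held 9, 97 and 0 Ccl7 UMIs in libraries 1, 2 and 3, against 0, 8 and 0 in dendritic cells. Against dendritic cells, 4 of 7 members were higher in macrophages, beside 12.9% of all genes called higher (23.0% in either direction). These were Ccl8 (9.85, SE 0.57), Ccl12 (9.30, SE 0.50), Ccl7 (6.87, SE 0.42) and Ccl2 (3.93, SE 0.32), with adjusted p-values from 6.3e-14 to 1.3e-10. Because dendritic cells had few or no UMIs of Ccl12 and Ccl7, these fitted sizes, and the SEs worked out from them, depend on the prior count. In library 1 macrophages were at least 206-fold higher than dendritic cells for Ccl12 and at least 35.5-fold for Ccl7, taking 3 UMIs per library as the floor. A single macrophage held 15 of the 16 Ccl7 UMIs behind this value, and 2 macrophages held 45 and 41 of the 93 Ccl12 UMIs. Ccl6 (0.73, SE 0.30, adjusted p = 0.084), Ccl9 (0.34, SE 0.47, adjusted p = 0.67) and Ccr2 (-0.48, SE 0.37, adjusted p = 0.39) were not called. Without library 1, which leaves a single macrophage sum, that of library 2, Ccl6 was called higher (0.97, adjusted p = 0.032) and Ccr2 lower (-1.43, adjusted p = 0.00091), while without library 2 Ccr2 was 0.88 (adjusted p = 0.12).

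All 6 ligands were called higher in monocytes than in dendritic cells. Of all genes, 8.51% were called higher and 5.08% lower (13.6% in either direction). The log2 differences were 7.86 for Ccl12 (SE 0.51), 4.11 for Ccl7 (SE 0.47), 4.06 for Ccl2 (SE 0.30), 2.72 for Ccl8 (SE 0.56), 2.68 for Ccl9 (SE 0.40) and 2.62 for Ccl6 (SE 0.26), and the largest adjusted p was 0.00076, for Ccl8, whose thinned share of monocytes in library 2 overlapped that of B cells. Ccr2 was 0.82 higher (SE 0.31, adjusted p = 0.078). The calls of Ccl7 and Ccl8 were lost without library 2 (adjusted p = 0.21 and 0.13), and that of Ccr2 was gained (1.12, adjusted p = 0.0028).

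In libraries 1 and 2, most dendritic Ccl9 UMIs and a smaller majority of the Ccl6 UMIs lay in cells with Cd209a UMIs, a marker of type 2 conventional dendritic cells. In library 2, 24 such cells had Ccl6 at 546 CPM (450 to 656) and Ccl9 at 174 CPM (122 to 241), against 21.8 CPM (15.2 to 30.1) and 0 CPM in 117 cells with Xcr1 or Clec9a, which mark type 1 cells. Both levels lay above those of the monocytes of that library (338 and 70.1 CPM). The Cd209a cells held 113 of the 189 Ccl6 UMIs and 36 of the 45 Ccl9 UMIs of the dendritic gate. The 6 Cd209a cells of library 1 had Ccl6 at 430 CPM (305 to 587), with 39 of its 69 dendritic Ccl6 UMIs and all 13 of its dendritic Ccl9 UMIs. Cells with Xcr1 or Clec9a held 19 of those 69 Ccl6 UMIs. Library 3 had no Cd209a dendritic cell, and no test was made on groups of this size.

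Against lymphoid cells all 7 members were called higher in macrophages, beside 24.1% of all genes called higher (39.0% in either direction), and all 7 were called higher in monocytes, beside 25.2% (41.4% in either direction). For Ccr2 in macrophages the ratio to pooled lymphoid cells ran the other way in library 2 (0.446-fold, against 2.68-fold in library 1). Adjusted p-values for the ligands were at most 1.1e-06 in macrophages and 4.5e-05 in monocytes, the latter for Ccl8 (2.01, SE 0.37), with the same limit on its detection in monocytes of library 2. The direct ratios depend less on empty sums, but those of Ccl2, Ccl7 and Ccl12 rest on few lymphoid UMIs. In library 2, Ccl2 was 322-fold higher in macrophages than in pooled lymphoid cells, Ccl7 431-fold and Ccl12 365-fold, on 15, 6 and 17 lymphoid UMIs. Ccl6 was 21.2-fold and Ccl9 2.58-fold higher there. Library 1 gave 761-fold, 1305-fold and 3793-fold on 3, 1 and 2 lymphoid UMIs, with 29.1-fold for Ccl6 and 8.65-fold for Ccl9. Ccl6 was 112-fold, 78.3-fold and 41.8-fold higher in monocytes than in lymphoid cells of libraries 1, 2 and 3, and Ccl9 22.9-fold, 13.9-fold and 4.26-fold. The fit averages classes on the log scale, so that B cells, NK cells and Foxp3 cells at or near 0 weigh as much as CD8 cells.

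In CD8 cells, Ccl6 and Ccl9 stood at far larger shares of their macrophage level than the other ligands. The Ccl6 level of CD8 cells was 7.41% of the macrophage level in library 1 and 10.97% in library 2. For Ccl9 the share was 22.8% in CD8 and 6.45% in CD4 cells of library 1, whose macrophages held 7 Ccl9 UMIs. In library 2 it was 62.5% in CD8 cells and 59.4% in CD4 cells. The macrophage level of Ccl9 was low there (13.03 CPM, against 70.1 CPM in monocytes of library 2). In lymphoid cells of library 2, C1qa, limited by the gate, reached at most 0.310%. Apoe, which is not in the gate, was at 0.337% in CD8 and 0.475% in CD4 cells. A single CD4 cell held 14 of the 20 Ccl9 UMIs behind the CD4 value of library 2. B cells and NK cells had 0 UMIs of both genes in all 3 libraries. In CD8 cells Ccl6 was at 8.98, 10.1 and 21.3 CPM and Ccl9 at 12.9, 8.14 and 31.9 CPM. In CD4 cells without Foxp3, Ccl6 was at 0.522, 1.16 and 0 CPM and Ccl9 at 3.65, 7.74 and 0 CPM.

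Ccl6 was called higher in CD8 than in CD4 cells (log2 difference 3.71, SE 0.64, adjusted p = 0.00019), as 1 of the 7 members, where 3.84% of all genes were higher and 5.13% lower (8.97% in either direction). It kept this call under every alternative run. Ccl9 differed by 1.28 (SE 0.51, adjusted p = 0.14), being 3.54-fold higher in CD8 cells of library 1 and 1.05-fold in library 2. In CD4 cells, 1 cell held 6 of 7 Ccl9 UMIs in library 1 and 1 cell 14 of 20 in library 2, so both ratios depend on single cells. Without library 2 the Ccl9 difference was called (2.61, adjusted p = 0.0049).

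Few CD8 cells made up these values. Ccl6 UMIs came from 14 of 927, 19 of 931 and 2 of 248 CD8 cells, and Ccl9 UMIs from 15, 14 and 2. Single cells held up to 12, 22 and 13 Ccl6 UMIs and up to 8, 5 and 16 Ccl9 UMIs. The genes were mostly found in separate cells: 28, 33 and 4 cells had either, and 1, 0 and 0 had both. Cells with either gene had median depths of 6777.5, 5913 and 6113 UMIs, against 4057, 3416 and 2121.5 UMIs in the remaining CD8 cells. Their summed C1qa, C1qb, C1qc and Lyz2 UMIs were 0.0928, 0.706 and 0 per 10000 UMIs, against 0.0483, 0.991 and 0.0471 in the rest. The gate counts all of these genes against T cells and so limits them in both groups. These values therefore cannot tell whether cells with Ccl6 or Ccl9 also held myeloid RNA. In library 3 a single cell held 13 of 14 Ccl6 UMIs, so that library gives no level of CD8 cells in general.

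Ccr2 had a wide distribution, with B cells as the exception. Its level was 660, 229 and 299.7 CPM in monocytes (396 ± 231, SD, n = 3), 419.5, 210 and 202 CPM in Foxp3 cells, 357, 181.6 and 65.2 CPM in dendritic cells, 283, 137 and 134 CPM in NK cells, 253, 124 and 108 CPM in CD8 cells and 236, 93.3 and 64.4 CPM in CD4 cells. B cells had 5.83, 0 and 0 CPM. Plasmacytoid cells, gated by Siglech, had 365 and 203 CPM in libraries 1 and 2. Library 1 had the highest value in every one of these classes. The order from monocytes through Foxp3 cells to NK, CD8 and CD4 cells held within each library, while the ranges of neighbouring classes over libraries overlapped. Macrophages were at 614 CPM (484 to 769) in library 1 but at 48.7 CPM (46.0 to 51.5) in library 2, below every lymphoid class there except B cells.

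**Figure D3:**
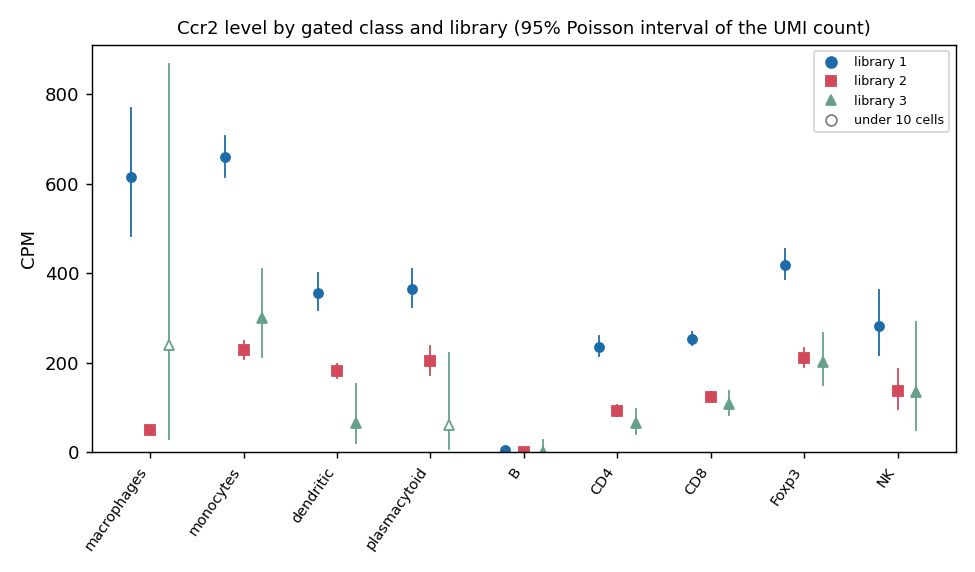
Ccr2 level (CPM) in each gated class, 1 point per library with the exact 95% Poisson interval; open points are sums of under 10 cells. Monocytes are highest in libraries 1, 2 and 3 (660, 229 and 299.7 CPM), B cells lie at or near 0, and the macrophages of libraries 1 and 2 are far apart (614 and 48.7 CPM).

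Monocytes exceeded the lymphoid classes in Ccr2 by 2.53 on the log2 scale (SE 0.24, adjusted p = 2.4e-10). The ratio to pooled lymphoid cells was 2.88-fold, 2.09-fold and 2.89-fold, smaller than the fitted difference because B cells count as a full class in the fit. Macrophages were called 1.22 higher (SE 0.32, adjusted p = 0.0026), although the ratio was 2.68-fold in library 1 and 0.446-fold in library 2. This call was lost without library 1 (1.30, adjusted p = 0.080) and with at least 20 cells required per sum, which leaves only the macrophages of library 2 (0.22, adjusted p = 0.53), and it was -0.14 (adjusted p = 0.79) under a stricter gate, which with 5 macrophages in library 1 also leaves only those of library 2.

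The CD4 class holds T cells with a Cd4 UMI and no Foxp3 UMI. A regulatory T cell without a detected Foxp3 UMI falls into that class when it has a Cd4 UMI. Foxp3 cells, taken as the regulatory T cells of the nerve, had more Ccr2 than the CD4 class. The level was 1.78-fold, 2.26-fold and 3.14-fold higher in libraries 1, 2 and 3, a log2 difference of 1.10 (SE 0.30, adjusted p = 0.038), with 1.95% of all genes higher and 1.55% lower (3.50% in either direction). Thinned to 1000 UMIs, 30.3%, 20.9% and 19.8% of Foxp3 cells had a Ccr2 UMI (60.3%, 42.5% and 30.8% unthinned), against 18.4%, 10.3% and 5.81% of CD4 cells (34.1%, 21.3% and 9.497% unthinned). Cells under that depth were left out, 17, 13 and 16 Foxp3 cells and 84, 20 and 24 CD4 cells. Among B cells the thinned share was 0.651% in library 1, and 0 of 260 and 0 of 63 cells in libraries 2 and 3 allow shares of up to 1.15% and 4.76%. Median depths were 3399.5, 2729 and 1978 UMIs in Foxp3 cells, 3007.5, 2563 and 1760 in CD4 cells and 4213.5, 2849.5 and 1643.5 in B cells. The call was lost without library 3 (0.98, adjusted p = 0.27) and by DESeq2 (1.14, adjusted p = 0.13), and without the block for library it was 1.04 with an adjusted p of 1.0.

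CD8 and CD4 cells differed in Ccr2 by 0.47 (SE 0.30, adjusted p = 0.46), and NK and CD8 cells by 0.01 with an adjusted p of 1.0. None of the 7 members was called between NK and CD8 cells, where 2.90% of all genes were higher in NK cells and 3.60% lower (6.49% in either direction). Among dendritic cells of library 2, Ccr2 was at 242 CPM (219 to 267) in cells with Xcr1 or Clec9a and at 241 CPM (179 to 318) in Cd209a cells, and at 14.7 CPM (5.92 to 30.3) in 55 cells with Fscn1, which marks mature dendritic cells. In library 1 the 8 Fscn1 cells had 234 CPM (143 to 361), so the low level was seen in 1 library.

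The members were also followed along the C1q level of the myeloid cells of library 2, where the bins below the macrophage gate hold monocytes, dendritic cells and other myeloid cells together. From under 3 to at least 160 C1q UMIs per 10000 UMIs, in 6 bins of 629, 55, 138, 299, 736 and 1622 cells, Ccl8 went from 49.3 through 185, 1356, 4464 and 9530 to 16703 CPM. Ccl7 went from 19.4 to 307 CPM, Ccl12 from 77.2 to 683 CPM and Ccl2 from 180 to 491 CPM. Ccr2 ran the other way, at 191, 189, 181, 99.5, 73.4 and 19.5 CPM, and Ccl9 went from 37.8 to 7.998 CPM. Ccl6 was at 173 and 213 CPM in the bins below the macrophage gate and between 79.2 and 115 CPM in those above it. The monocyte gene Ly6c2 went from 134 to 13.5 CPM and Apoe from 2307 to 35108 CPM over the same bins. These are descriptions of 1 mouse, with no test.

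**Figure D4:**
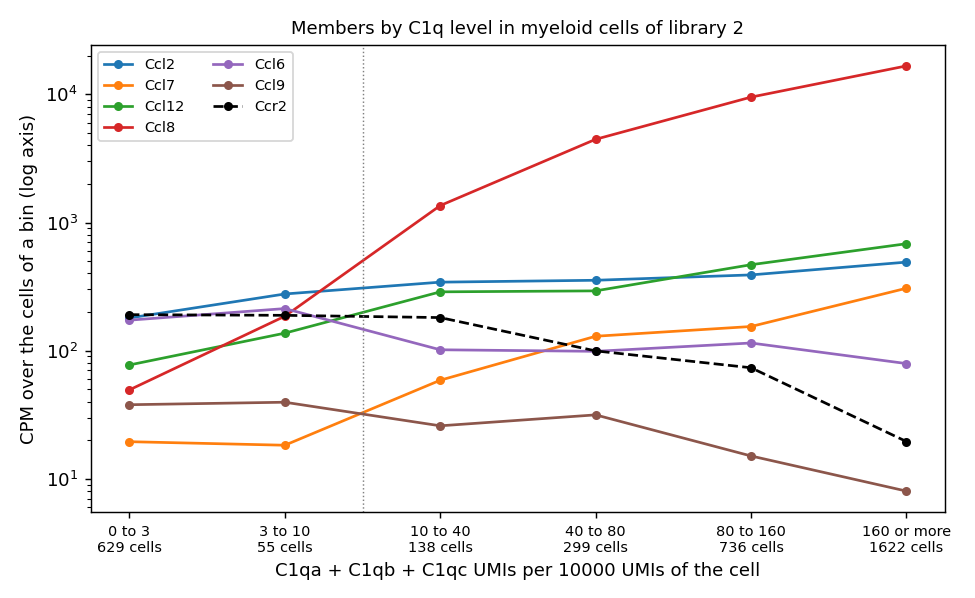
Level of each member (CPM, log axis) in myeloid cells of library 2 binned by C1qa, C1qb and C1qc UMIs per 10000 UMIs, with the number of cells under each bin; the dotted line is the macrophage gate. Ccl8 goes from 49.3 to 16703 CPM from the lowest to the highest bin while Ccr2 (dashed) goes from 191 to 19.5 CPM.

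Most members were also unevenly divided by C1q among the 14 macrophages of library 1. The 8 cells with at least 40 C1q UMIs per 10000 held 208 of 209 Ccl8 UMIs, 92 of 93 Ccl12 UMIs, 26 of 28 Ccl2 UMIs and 15 of 16 Ccl7 UMIs. Ccl9 was at 90.4 CPM (5 UMIs) in these cells and 29.2 CPM (2 UMIs) in the others, the opposite order to library 2. The other 6 cells held 13 of 15 Ccl6 UMIs and had Ccr2 at 716 CPM, against 488 CPM in the 8. A single cell carried 182 Ccl8, 45 Ccl12, 17 Ccl2 and 15 Ccl7 UMIs and no Ccr2 UMI. The library 1 macrophage level of Ccl8 and Ccl7 is therefore largely that of 1 cell, and no macrophage value can be given for a typical cell of that mouse.

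Among the macrophages of library 2 the ligands were unevenly spread. Over 2733 cells of at least 1000 UMIs, the median Ccl8 level was 60.6 UMIs per 10000, the 10th percentile 0 and the 90th percentile 328, and the highest cell reached 1338. The tenth of the cells richest in the gene held 45.6% of Ccl8 UMIs, 59.5% of Ccl2, 60.7% of Ccl12, 64.2% of Ccl6 and 83.9% of Ccl7 UMIs. Thinned to 1000 UMIs, 13.6% of the cells had none of the 6 ligands, 43.2% had 1, 29.5% had 2, 10.6% had 3 and 2.56% had 4. Of monocytes, 49.6%, 50% and 44.8% had none in libraries 1, 2 and 3.

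Ccl2, Ccl7 and Ccl12 were found together in the same macrophages. In the thinned cells of library 2, 25.4% of the 649 with a Ccl2 UMI also had Ccl7 (22.1% to 29.0%), against 7.68% of the 2084 without (6.57% to 8.90%). Ccl12 was present in 36.7% of cells with Ccl2 and 24.6% of those without, and in 45.5% of the 325 cells with Ccl7 and 25% of those without. Ccl8 went with Ccl7 (83.4% against 72.7%) and Ccl12 (79.2% against 72.0%) but not with Ccl2 (73.0% against 74.3%). Cells with Ccr2 had Ccl8 less often (43.0% of 135 cells against 75.6%), and 29.8% of the 47 cells with Ccl9 had Ccl6, against 7.52% of the rest. The intervals are binomial over cells of 1 mouse, and the cells are not replicates.

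**Figure D5:**
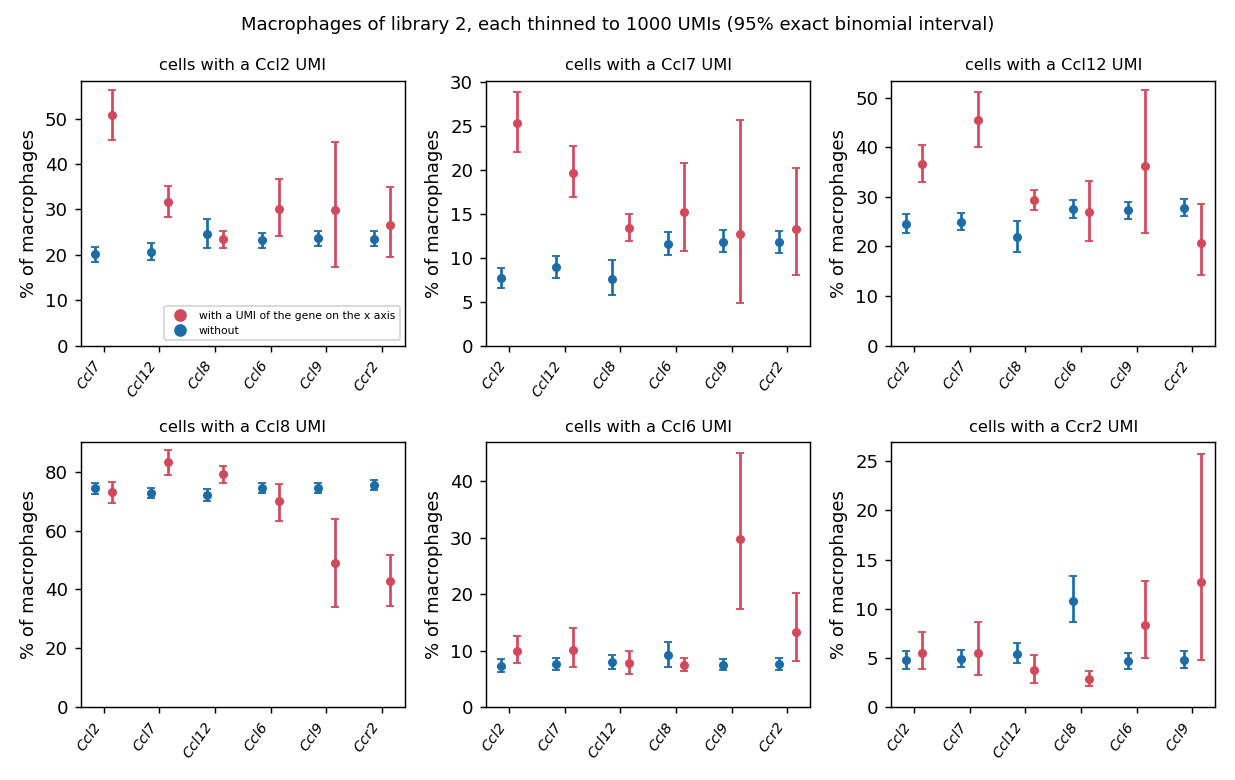
Share of library 2 macrophages (%) with a UMI of the gene in the panel title, among cells with (red) and without (blue) a UMI of the gene on the x axis, with exact 95% binomial intervals; every cell was thinned to 1000 UMIs. Ccl2, Ccl7 and Ccl12 go together, as in 25.4% against 7.68% for Ccl7 by Ccl2, and Ccl8 is less often found with Ccr2 (43.0% against 75.6%).

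Tissue-resident macrophages of nerve and other organs are known by genes such as Lyve1, Folr2, Timd4 and Mrc1. Macrophages of library 2 thinned to 3000 UMIs were split by a list of 8 genes (these, Cd163, Gas6, Cbr2 and F13a1, the last also a monocyte gate gene) into 1955 cells with no UMI, 402 with 1 and 144 with 2 or more. Ccl8 was at 11010, 15063 and 23887 CPM in these groups and Ccl6 at 75.4, 95.4 and 405 CPM (347 to 470). Ccl9 was at 11.6, 21.6 and 57.9 CPM and Ccl2 at 466, 495 and 676 CPM, whereas Ccl12 was at 588, 624 and 632 CPM with overlapping intervals. Ccl7 was at 233, 343 and 292 CPM and Ccr2 at 49.4, 73.8 and 55.6 CPM, neither with a steady rise. The C1q level was alike in the groups, at 186, 187 and 185 UMIs per 10000. Most listed genes were rarely detected: before thinning, from 0.502% (Lyve1) to 17.8% (Mrc1) of the macrophages of library 2 had a UMI. The groups are cells of 1 mouse, and no test was made.

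The other CC chemokines and CC receptors were 28 genes, of which 16 passed the count filter. Between monocytes and macrophages 3 were higher and 2 lower in monocytes (median log2 difference -0.48, against -0.05 over all genes). Higher were Ccl22, a ligand of CCR4 (2.87), Ccr6 (2.10) and Ccr1, the receptor of Ccl6 and Ccl9 (1.64), and lower were Ccl3 (-1.68) and Ccrl2 (-1.18). Against lymphoid cells, 8 were higher and 1 lower in macrophages (median 0.64), led by Ccrl2 (6.26), Ccr1 (5.72) and Ccl22 (3.61), with Ccr7 lower (-1.77). In monocytes 4 were higher and 1 lower than in lymphoid cells (median 0.25), led by Ccr1 (7.36). Against dendritic cells 5 were higher and 3 lower in macrophages (median 0.82), and 5 higher and 2 lower in monocytes (median 0.58). Ccl22 (-4.84 and -1.97) and Ccr7 (-2.69 and -2.31), genes of mature dendritic cells, were lower in both.

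Among T cells the same list had 4 genes higher and 3 lower in CD8 than in CD4 cells, led by Ccl5 (3.34), Ccl4 (1.60) and Ccl3 (1.23) and, on the lower side, Ccr8 (-3.21), the receptor of Ccl8, Ccr4 (-3.13) and Ccr6 (-2.83). The median was -0.11. Foxp3 cells differed from CD4 cells in 1 gene, Ccl3 (-2.33), so that Ccr2 was the only CC receptor among those tested to be called between them. NK cells had 3 lower than CD8 cells, Ccl3 (-3.06), Ccl5 (-2.23) and Ccl4 (-1.48).

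In a list of 18 monocyte trafficking genes, 16 passed the filter. Csf2rb (0.91) was higher in monocytes than in macrophages, and the fractalkine receptor Cx3cr1 was lower (-1.07), with 13 not called (median 0.18). In monocytes 9 were higher and 3 lower than in lymphoid cells (median 0.84), led by Csf1r (9.75), Spi1 (7.69) and Csf2rb (7.47). Macrophages had 7 higher and 5 lower (median 0.09), led by Csf1r (10.2), Spi1 (7.51) and Cx3cr1 (6.59). Against dendritic cells 4 were higher and 4 lower in macrophages, and 5 higher and 1 lower in monocytes, both led by Cx3cr1 (6.35 and 5.28). Foxp3 cells had Irf8 (1.10) and Selplg (0.78) higher and Itgb1 (-1.47) and Itga4 (-0.69) lower than CD4 cells. CD8 cells had 3 higher and 1 lower than CD4 cells, led by Itgam (3.46), and NK cells 4 higher and 3 lower than CD8 cells, led by Itgam (4.37).

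The genes with the most similar level across the 23 sums of a class in a library, by Pearson r of log2(CPM + 1) over 10427 genes, differed between the members. Closest to Ccl8 were C1qc (r = 0.967), Ms4a7 (0.916) and C1qb (0.91), and closest to Ccl7 were Mertk (0.98), Tmem119 (0.978) and Cd300ld3 (0.965). Ccl2 was most like Tnfsf13 (0.99), Sash1 (0.989) and Rai14 (0.983), and Ccl12 most like Hal (0.977), 4930430E12Rik (0.976) and Fn1 (0.973). Ccl6 came closest to Gatm (0.924), Tppp3 (0.918) and Tnfaip2 (0.916). For Ccl9 the nearest gene was Ccl6 itself (0.899), followed by Oas3 (0.882) and Pram1 (0.87). Ccr2 was most like Errfi1 (0.94), Ccdc88b (0.927) and Cyth4 (0.919), and its r with the ligands was between 0.121 (Ccl8) and 0.475 (Ccl9). The sums share libraries and differ in depth, so these values are descriptions. C1qb and C1qc set the macrophage gate, which makes them high in the macrophage sums and low in the others. Any gene high mainly in the macrophage sums therefore comes out close to them.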

How the data were processed

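CD45+ cells from sciatic nerve were sequenced with the 10x Genomics 5′ kit, and the authors mapped reads to mm10 and deposited UMI counts per gene and cell, made per the file headers with Cell Ranger 5.0.1 (library 1) and 6.1.2 (libraries 2 and 3). The submitters' processing notes also name Seurat. The deposited counts, barcodes and gene names were used as they are. Library 1 came without gene names and took the row order of the others: its gene totals had a Spearman rho of 0.9501 and 0.9287 with theirs, and 0.3619 and 0.3211 after a shift by 1 row. Cells with under 300 UMIs, over 5000 genes or over 20% mitochondrial UMIs were dropped. No doublet caller was run.

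Cells were gated by marker UMIs. Myeloid cells needed 3 UMIs of Lyz2, Csf1r, Cybb, Cd68, Ms4a6c, Cst3, C1q or dendritic genes, T cells 2 of Cd3d, Cd3e, Cd3g and Trac, B cells 2 of a list with Cd79a, Cd79b and Ms4a1, and NK cells 2 of Ncr1, Klrb1c, Klre1, Klra4, Klra8 and Eomes. UMIs of other lineages could reach 20% of the own sum. Among T cells, CD4 cells had a Cd4 UMI and CD8 cells a Cd8a or Cd8b1 UMI, each without UMIs of the other or of Foxp3. Foxp3 cells had a Foxp3 UMI and no Cd8a or Cd8b1 UMI, with or without Cd4. The remaining T cells were 21.0%, 16.0% and 40.1% of the cells of libraries 1, 2 and 3. They held 21.0%, 14.7% and 34.1% of the Ccr2 UMIs and were in no test. Macrophages had at least 10 C1q UMIs per 10000 UMIs. Dendritic cells had 2 UMIs of Flt3, Zbtb46, Clec9a, Xcr1, Cd209a, Fscn1 or Kmo, and monocytes 2 of Ly6c2, Chil3, Vcan, F13a1, Ms4a4c or Hp. Thresholds were set after seeing the data, and the members and gene lists were chosen with earlier results of these data known.

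UMIs were summed per library and class (at least 10 cells, 23 sums) and fitted in edgeR 4.0.16 (R 4.3.3; TMM, filterByExpr, glmQLFTest, library as block, Benjamini-Hochberg over 10427 genes, threshold 0.05). Sums of 1 library come from the same mice and deviated together. With macrophages left out, deviations from the class mean correlated at a median of 0.182 within a library (0.0745 to 0.571). The median of -0.100 between libraries follows from subtracting the class mean and adds no evidence. The libraries also differ in depth, and its part in these correlations was not tested. The SE given with an edgeR difference is the absolute difference divided by the square root of its F statistic. DESeq2 was an alternative. Tested on simulated data of 9564 genes for macrophages against lymphoid classes, the fit recovered 61% of genes changed by 1 on the log2 scale and 92% of those changed by 2, and for monocytes against macrophages (9571 genes) 38% and 83%. The simulated sums differed only in depth, counting spread and the changes put in, with no library effects and no other class differences. The recovery rates may therefore not hold for the real sums. For shares, cells were thinned to 1000 UMIs. Named genes were the 7 members, the 3 largest called differences in each direction of each list, and the 3 genes most alike, and some genes that this rule gives are not reported here. The block takes out differences between the 3 libraries that all classes share. The p-values therefore rest on how class differences vary from library to library, with the spread estimated over all 23 sums. For macrophages only libraries 1 and 2 gave a sum. Biopython 1.88 aligned the promoters.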

Additional observations from a re-analysis of the deposited data

How the results depend on the processing

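Of 40 differences of members under 14 alternatives (560 values), 495 kept direction and call, 35 lost the call, 17 gained it and 13 changed sign, and 21 differences held throughout, among them Ccl8 between monocytes and macrophages and Ccl6 between CD8 and CD4 cells. Values are log2 differences, and the cause was not tested. For monocytes against macrophages, Ccl2 turned to -0.045 with DESeq2 size factors, -0.10 under the strict gate, -0.0089 with at least 20 cells per sum and -0.15 with a C1q threshold of 40, an alternative chosen after seeing the data. Calls were lost by DESeq2 for Ccl7 (-3.91), Ccl12 (-1.61), Ccl9 (1.60) and Ccr2 (0.98), under the loose gate for Ccl12 (-1.22) and Ccr2 (1.16), and with DESeq2 size factors for Ccr2 (1.17). For macrophages against lymphoid classes, Ccr2 was -0.14 under the strict gate, 0.22 with 20 cells and 0.61 with the C1q threshold of 40. For macrophages against dendritic cells, Ccl6 was called with DESeq2 size factors (0.84), without the count filter (0.79), under the strict gate (1.86) and without the 5% of cells with the most UMIs (0.90). Ccr2 was called lower there under the strict gate (-1.86), with 20 cells (-1.59), both with 1 macrophage sum, and with the C1q threshold of 40 (-1.06), Ccl9 turned to -0.27 under the loose gate, and DESeq2 did not call Ccl7 (7.77). For monocytes against dendritic cells, DESeq2 did not call Ccl7 (3.86) or Ccl8 (3.83), nor was Ccl8 called under the loose gate (1.14) or the C1q threshold of 40 (0.86). Ccr2 was called there without the count filter (0.84), under the strict gate (0.86), without the deepest cells (0.89), with 20 cells (0.71) and with the C1q threshold of 40 (0.89). DESeq2 did not call Ccl7 between monocytes and lymphoid classes (5.53). Ccl9 was called between CD8 and CD4 cells without the count filter (1.31). Ccr2 in Foxp3 against CD4 cells was not called by DESeq2 (1.14), under the loose gate (1.14) or without the deepest cells (1.02). In NK against CD8 cells, Ccr2 turned to -0.030 without the count filter, -0.019 under the strict gate, -0.0061 without the deepest cells and -0.0051 without shared barcodes.

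Without the replicate block for library, calls were lost for Ccl12 (-1.18), Ccl6 (1.95), Ccl9 (2.25) and Ccr2 (0.65) in monocytes against macrophages, Ccl8 in monocytes against dendritic cells (2.49) and lymphoid classes (2.03), and Ccr2 in Foxp3 against CD4 cells (1.04), and Ccr2 turned to 0.28 in macrophages against dendritic cells. The number of genes called was 2375 without the block and 4065 with it for macrophages against lymphoid classes, 74 and 669 for monocytes against macrophages (229 by DESeq2 with the block), 913 and 2399 for macrophages and 571 and 1417 for monocytes against dendritic cells, 325 and 935 for CD8 against CD4, 48 and 365 for Foxp3 against CD4 and 314 and 677 for NK against CD8 cells.

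Leaving out 1 library at a time, differences for monocytes against macrophages ran from -0.11 to 0.31 for Ccl2, -4.00 to -2.58 for Ccl7, -1.71 to -1.34 for Ccl12, 1.70 to 1.98 for Ccl6, 1.26 to 2.45 for Ccl9 and 0.24 to 2.22 for Ccr2. Ccr2 ran from 1.20 to 2.32 for macrophages against lymphoid classes, -1.43 to 0.88 for macrophages and 0.67 to 1.12 for monocytes against dendritic cells, and 0.98 to 1.26 for Foxp3 against CD4 cells. Against dendritic cells, Ccl6 in macrophages ran from 0.63 to 0.97, and Ccl7 and Ccl8 in monocytes from 4.13 to 5.88 and 2.30 to 2.96. Ccl9 in CD8 against CD4 cells ran from 0.85 to 2.61. Genes called ran from 905 to 4307 for macrophages and 2705 to 4255 for monocytes against lymphoid classes, 32 to 583 for monocytes against macrophages, 443 to 2458 for macrophages and 746 to 1264 for monocytes against dendritic cells, 479 to 776 for CD8 against CD4, 166 to 245 for Foxp3 against CD4 and 337 to 520 for NK against CD8 cells. The low ends of macrophages and monocytes were those without library 2.

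Shares of cells with a UMI moved with depth: unthinned, 84.6% of macrophages and 13.8% of B cells of library 2 had Ccl8, and 60.3%, 42.5% and 30.8% of Foxp3 cells and 34.1% and 21.3% of CD4 cells (libraries 1 and 2) had Ccr2. At 500 UMIs, Ccl8 was found in 68.5% of macrophages and Ccr2 in 22.2%, 10.5% and 6.54% of Foxp3 cells and 5.90% of CD4 cells of library 2. Under the strict gate, Ccl8 was found in 71.7% of macrophages and Ccr2 in 36.1% of Foxp3 cells of library 1.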
